A study of Mus musculus with 72 samples.

Results

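The 4 genes described here, Dbp, Tef, Hlf and Nfil3, encode the PAR bZIP transcription factors of the liver and the related repressor that competes with them. They were chosen by name, as the rows of the count table whose Ensembl identifier carries these symbols, and they are 4 of 55573 genes in that table. The study asked how a liver clock and gut microbes together shape the daily hepatic transcriptome, and RNA-Seq was run on livers of male mice kept in a light/dark cycle, labelled C57BL/6 and described in the methods as C57BL/6J. Livers were taken at 6 Zeitgeber times (ZT, hours after lights on), every 4 h from ZT2 to ZT22, from 4 groups with 3 libraries per group and time, 72 in all. SPF mice carried a specific pathogen-free microbiota and GF mice were germ free, rederived and kept in isolators. Mice called WT were Bmal1 fl/fl animals without Cre, and mice called LKO were Bmal1 fl/fl animals with Albumin-Cre, so that every mouse carried the floxed alleles. Albumin-Cre acts in hepatocytes, and other liver cells of LKO mice keep an intact Bmal1 gene. The labels give no age. Nothing in the labels beyond a replicate number sets the libraries of a group and time apart, so that p-values measure the spread between these samples.

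DBP, TEF and HLF are activators with a proline- and acidic amino acid-rich domain next to a basic leucine zipper, and they bind D-box elements in promoters of many liver genes for detoxification and lipid handling. NFIL3 (also called E4BP4) has a similar basic leucine zipper, binds the same elements and represses. In the clock, Dbp is a classic E-box target of CLOCK:BMAL1, and Nfil3 is controlled through ROR elements by RORs and REV-ERBs, so that activators and repressor are known to peak at opposite times of day. Nfil3 is also known to respond to microbiota in the gut epithelium.

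In the mm10 annotation used for counting, Dbp (ENSMUSG00000059824) lies on the plus strand at chr7:45705088-45710203, Tef (ENSMUSG00000022389) on the plus strand at chr15:81802421-81826863, Hlf (ENSMUSG00000003949) on the minus strand at chr11:90336536-90390895, and Nfil3 (ENSMUSG00000056749) on the minus strand at chr13:52967209-52981073. RefSeq promoter windows of 300 bases (250 before and 50 after an annotated start, GRCm38.p6) were available for all 4 genes, 5 windows in all because Tef has a pair of starts. They were searched on both strands for an E-box (CACGTG), its variant CACGTT, D-boxes (TTATGTAA, TTACGTAA) and ROR elements (ANTAGGTCA, ANTGGGTCA), none of which contains another. Both Tef windows held CACGTG, starting at position -127 of the upstream start and position -138 of the downstream start, and the Nfil3 window held ANTAGGTCA on the opposite strand at position -12. The stretches are shown 5′ to 3′ on the strand of the gene because they hold a match, with the matched letters in capitals.
Tef, upstream start, chr15:81802511-81802586, plus strand: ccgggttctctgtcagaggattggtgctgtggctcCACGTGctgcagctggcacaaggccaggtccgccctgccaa
Tef, downstream start, chr15:81811241-81811316, plus strand: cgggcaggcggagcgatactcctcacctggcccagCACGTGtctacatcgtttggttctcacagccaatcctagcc
Nfil3, chr13:52981008-52981086, minus strand: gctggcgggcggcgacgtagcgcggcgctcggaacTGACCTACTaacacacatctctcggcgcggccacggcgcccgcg

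Of all 32851 RefSeq promoter windows of this length, 7.15% held CACGTG, 4.68% CACGTT, 0.938% TTATGTAA, 0.119% TTACGTAA, 0.661% ANTAGGTCA and 0.791% ANTGGGTCA. The windows of Dbp and Hlf held none of these letters, which says nothing of elements elsewhere in those genes. The matches are descriptions of sequence, and binding was not measured here.

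Counts assigned to genes ranged from 17369927 to 22076113 per library (median 19106726). Levels are given as CPM (counts scaled to 1000000 per library), with TMM-scaled library sizes, and as CPM per kilobase of exon (CPM per kb) wherever genes are compared with each other. The targeted gene Arntl (Bmal1) was checked first. In WT mice Arntl rose from 1.28 ± 0.603 CPM at ZT10 to 36.1 ± 3.35 CPM at ZT22 in SPF livers and from 0.607 ± 0.319 to 36 ± 3.99 CPM in GF livers (SD, n = 3), whereas in LKO mice its ZT means stayed between 9.04 and 17.5 CPM (SPF) and between 8.52 and 11.3 CPM (GF). Gene-level counts do not separate the floxed exon from the rest of the transcript. Each library was compared with the mean profile of every group and ZT, itself left out, over 11085 genes. The profiles of 70 of 72 libraries correlated best with a group of their own genotype. The exceptions were SPF LKO ZT14 replicate 2 and SPF LKO ZT18 replicate 1, which correlated best with SPF WT at the same ZT. SPF WT ZT14 replicate 3 correlated best with GF WT at ZT10, and GF WT ZT6 replicate 3 with SPF WT at ZT18. These 4 libraries, which earlier work on these data had set apart, are called below the libraries that went against their labels, and several results below are also given without them. Without them the ZT means of Arntl in SPF LKO livers lay between 9.04 and 14.1 CPM. The check of labels was less clear for microbial status and time. Of the 72 libraries, 66 correlated best with their own microbial status, 46 with their own ZT and 70 within 4 h of it. Beside the 4, SPF WT ZT18 replicate 3, SPF WT ZT22 replicate 1, SPF LKO ZT14 replicate 3 and SPF LKO ZT18 replicate 3 correlated best with GF mice of their genotype, and SPF LKO ZT22 replicate 1 with SPF LKO at ZT6, 8 h away, and these 5 were kept in every fit except those that leave out single libraries or replicates.

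The labelled tissue was checked against its markers. The 5 hepatocyte markers in the table (of 6 listed) summed to between 41200 and 165000 CPM per library, 5 lymphocyte markers summed to between 0.684 and 9.19 CPM, and 5 markers of other tissues to between 0.0891 and 1.91 CPM, with Ins2 at 0 counts in every library. Alb, whose promoter drives Cre, had medians of 83700 CPM in SPF WT and 104000 CPM in GF WT livers against 36400 and 32100 CPM in SPF and GF LKO livers. Without the 4 libraries, Alb was at most 49700 CPM in LKO libraries and at least 59600 CPM in WT libraries, and the libraries labelled SPF LKO that resembled WT had 82900 and 102000 CPM. The other 4 hepatocyte markers in the table (Apoa1, Ttr, Cps1 and Ass1) overlapped between genotypes. The 6 Kupffer cell markers summed to 177 to 467 CPM in SPF WT, 169 to 272 CPM in SPF LKO, 141 to 289 CPM in GF WT and 106 to 250 CPM in GF LKO livers, and their part in the results was not tested. In whole liver, fewer cells of a type and less RNA per cell cannot be told apart.

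Averaged over the day, Tef was the most abundant PAR bZIP transcript per length. In SPF WT livers the means over 18 libraries were 19.5 ± 10.6 CPM per kb for Tef, 14.7 ± 6.63 for Nfil3, 8.57 ± 2.21 for Hlf and 7.73 ± 9.05 for Dbp (SD). GF WT livers had 18.2 ± 9.98 CPM per kb of Nfil3, 17.9 ± 10.6 of Tef, 8.79 ± 2.30 of Hlf and 7.42 ± 10.6 of Dbp. Neighbours in that order differed by less than these spreads, which are mainly spreads over the day in WT mice. In LKO livers the order was Nfil3, Tef, Hlf and Dbp, at 16.9 ± 3.52, 14.1 ± 2.93, 7.72 ± 1.14 and 1.58 ± 1.05 CPM per kb in SPF mice and 18.2 ± 3.80, 13.6 ± 1.35, 6.47 ± 1.06 and 1.08 ± 0.433 in GF mice. There the pairs Tef and Hlf, and Hlf and Dbp, were separated by more than their spreads, as were Nfil3 and Tef in GF mice but not in SPF mice. Of the 2993 exon bases of Dbp, 539 (18.0%) also belong to Sphk2, as do 193 of 7867 Tef bases (2.45%) to Gm17597. The counting command in the file header sets neither strand nor multi-gene overlap, and with those defaults featureCounts assigns reads on shared bases to neither gene, so that levels per length of Dbp may be too low. Hlf and Nfil3 share no exon base with another gene.

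In WT livers all 4 genes oscillated. The fitted peaks of the activators came in the order Dbp, Tef, Hlf, an order that was not tested, with Nfil3 at about the opposite time of day. Rhythm was tested with a 24 h cosine in the count model (edgeR's quasi-likelihood test, Benjamini-Hochberg adjustment over all genes), which also gave an amplitude, the distance from the mean to the peak on the log2 scale, and a peak time. At an adjusted p of 0.05, 16.9% of 12099 genes were called rhythmic in SPF WT livers and 29.4% of 11650 genes in GF WT livers, and all 4 members were called in both.

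Dbp had the widest swing. In SPF WT livers it stood at 44.3, 51.8 and 66.8 CPM at ZT6 and at 0.575, 0.720 and 0.945 CPM at ZT22, a ratio of the means of 72.7. In GF WT livers it stood at 55.2, 85.9 and 98.1 CPM at ZT10 and at 0.731, 0.909 and 1.07 CPM at ZT22, a ratio of 88.3. The high and low libraries were far from overlapping in either case. Its amplitude was 3.09 ± 0.34 with a peak at ZT 9.25 ± 0.379 h in SPF WT mice (adjusted p = 3.71e-05), and 3.51 ± 0.29 with a peak at ZT 9.39 ± 0.268 h in GF WT mice (adjusted p = 7.27e-08), each ± SE over 18 libraries. Of the genes tested in each WT group, none had a larger fitted amplitude than Dbp. SPF WT livers at ZT14 held 4.26, 7.66 and 67.7 CPM of Dbp, the last in the library that resembled ZT10. Without it, the SPF WT peak was at ZT 8.36 ± 0.280 h with an amplitude of 3.01 ± 0.23.

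Tef, which shares its D-box targets with Dbp, followed with a smaller swing. It was at 236, 289 and 298 CPM at ZT10 and 44, 46.6 and 50.8 CPM at ZT22 in SPF WT livers, and at 261, 272 and 281 CPM at ZT10 and 39.4, 41.9 and 46.9 CPM at ZT2 in GF WT livers. Amplitudes were 1.15 ± 0.099 (peak ZT 10.2 ± 0.328 h, adjusted p = 3.08e-06) and 1.3 ± 0.12 (peak ZT 11.1 ± 0.337 h, adjusted p = 1.36e-06). Hlf, the flattest of the activators, was at 56.9, 76.1 and 88.2 CPM at ZT10 and 43.2, 43.6 and 44.4 CPM at ZT2 in SPF WT livers, and at 57.9, 67.6 and 87.4 CPM against 31.1, 33.1 and 38 CPM at the same times in GF WT livers. Its amplitudes were 0.40 ± 0.072 (peak ZT 12.6 ± 0.694 h, adjusted p = 0.00269) and 0.44 ± 0.083 (peak ZT 12.6 ± 0.715 h, adjusted p = 0.00246). Thus a cosine through Hlf peaked 3.34 h after Dbp in SPF WT and 3.24 h after Dbp in GF WT mice.

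Nfil3 ran against the activators. In SPF WT livers it was at 11.8, 14.7 and 22.0 CPM at ZT10 and 38.5, 44.4 and 63 CPM at ZT22. In GF WT livers it was at 9.02, 10.0 and 19.6 CPM at ZT6, the highest being the library that resembled ZT18, and 44.7, 57.5 and 73.1 CPM at ZT22. No low library overlapped a high library. Its amplitude was 0.82 ± 0.11 with a peak at ZT 20.7 ± 0.528 h in SPF WT mice (adjusted p = 0.000285) and 1.22 ± 0.13 with a peak at ZT 20.5 ± 0.407 h in GF WT mice (adjusted p = 1.47e-05), 11.4 h and 11.1 h after Dbp.

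**Figure D1:**
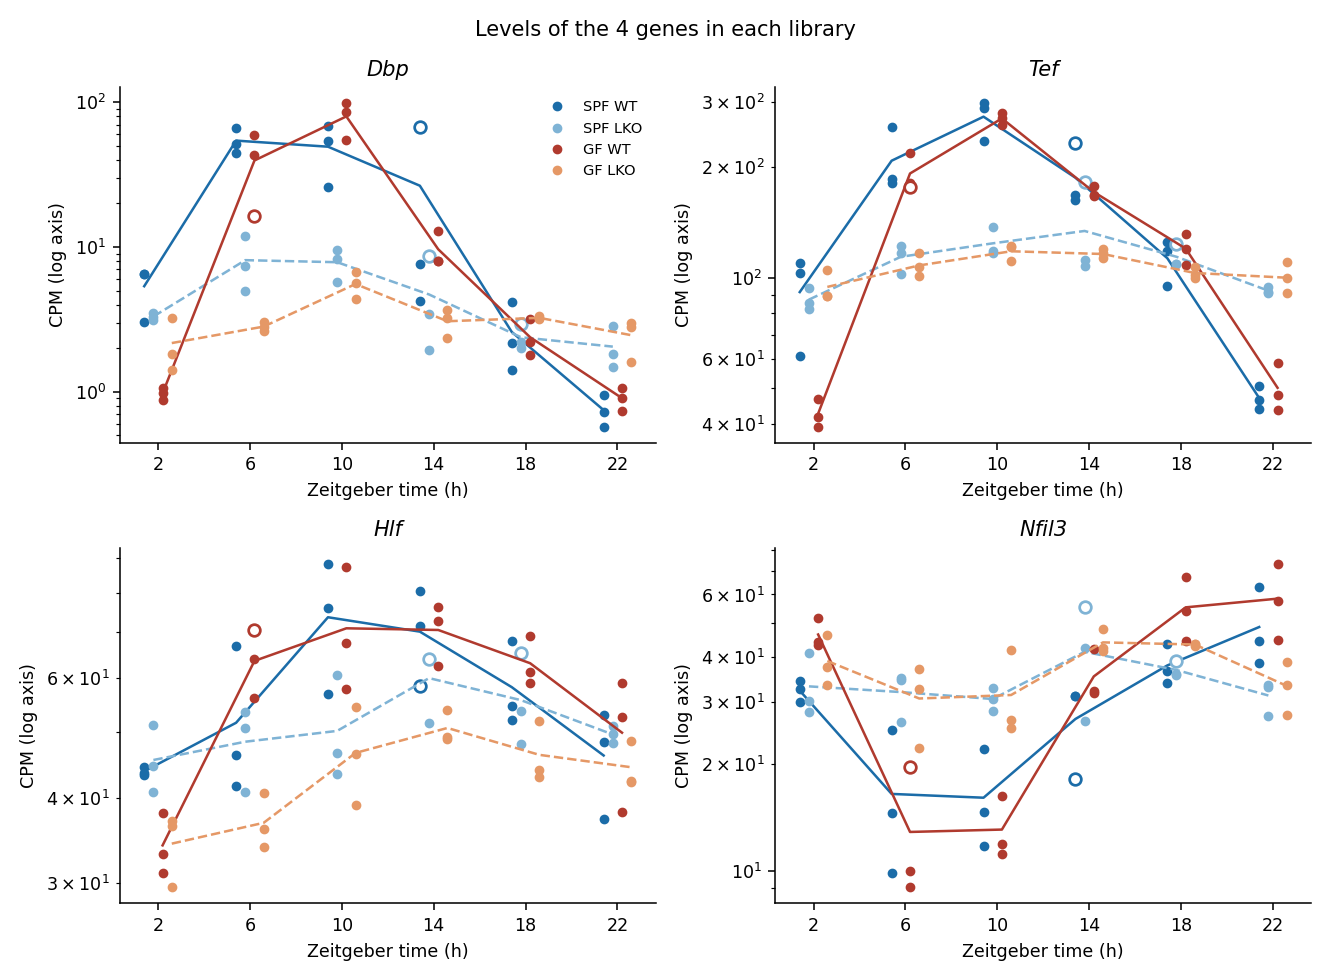
CPM (log axis) of Dbp, Tef, Hlf and Nfil3 against Zeitgeber time (h) in the 4 groups; each point is 1 library, offset sideways by group, lines join the ZT means (solid WT, dashed LKO), and open points are the 4 libraries that went against their labels. Dbp in GF WT livers runs from 0.878 to 1.07 CPM at ZT2 up to 98.1 CPM at ZT10, while in GF LKO livers it stays between 1.42 and 6.67 CPM.

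In LKO livers Dbp and Tef were lower than in WT livers at ZT6 and ZT10 and higher at ZT22, and Nfil3 was higher at ZT10. Nfil3 was also called higher at ZT6 and lower at ZT22 in GF mice, with SPF differences in the same direction that did not pass. Tef was called higher at ZT2 in GF mice. With ZT pooled, Dbp was lower in LKO than in WT mice, by -2.29 ± 0.53 on the log2 scale in SPF mice (adjusted p = 0.00135) and -2.78 ± 0.57 in GF mice (adjusted p = 0.000183; edgeR, n = 18 for each group, ± SE). These pooled values rest on group means and so weigh the hours of the peak most: the mean of the 6 within-ZT differences was -1.21 ± 0.29 (adjusted p = 0.00214) in SPF and -1.04 ± 0.16 (adjusted p = 4.28e-06) in GF mice. SPF WT libraries held 0.575 to 68.3 CPM of Dbp (median 6.52) and SPF LKO libraries 1.48 to 12 CPM (median 3.35), and GF WT libraries held 0.731 to 98.1 CPM (median 5.58) against 1.42 to 6.67 CPM (median 3.09) in GF LKO mice. The groups overlapped, since LKO values lay inside the WT range. Hlf was lower in GF LKO mice by -0.44 ± 0.11 (adjusted p = 0.00135), at 29.6 to 54.5 CPM (median 42.6) against 31.1 to 87.4 CPM (median 60.1) in GF WT mice. In SPF mice the Hlf difference was -0.15 ± 0.095 (adjusted p = 0.281). Tef (-0.46 ± 0.20 in SPF and -0.40 ± 0.22 in GF mice, adjusted p = 0.0909 and 0.168) and Nfil3 (0.21 ± 0.17 and 0.0031 ± 0.22, adjusted p = 0.406 and 0.994) did not pass with ZT pooled. Without replicate 3 of every group and time the SPF call for Dbp and the GF call for Hlf were lost (-1.78, adjusted p = 0.0586, and -0.32, adjusted p = 0.0725). So 1 of 4 members was called in SPF mice, where 23.1% of 13159 genes were, and 2 of 4 in GF mice, where 30.8% of 12662 genes were. A test of the difference between these genotype effects (GF minus SPF) called 0.438% of 13484 genes and 0 of 4 members by edgeR or DESeq2; 1, Hlf, had an unadjusted p under 0.05 (-0.30 ± 0.15, adjusted p = 0.751).

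Within single ZTs the direction depended on the hour. At ZT6, Dbp was at 4.93, 7.42 and 12 CPM in SPF LKO livers, against the 44.3 to 66.8 CPM of SPF WT livers given above, a log2 difference of -2.75 ± 0.40 (adjusted p = 0.000921). GF LKO livers at ZT6 held 2.65, 2.80 and 3.02 CPM against 16.4, 42.9 and 59.5 CPM in GF WT livers, where the lowest is the library that resembled ZT18, a difference of -3.81 ± 0.44 (adjusted p = 0.000113). At ZT10 the values were 5.69, 8.29 and 9.57 CPM in SPF LKO against 25.9, 53.9 and 68.3 CPM in SPF WT livers (-2.65 ± 0.32, adjusted p = 7.21e-05), and 4.39, 5.60 and 6.67 CPM in GF LKO against 55.2 to 98.1 CPM in GF WT livers (-3.84 ± 0.34, adjusted p = 2.67e-06). The genotypes did not overlap at either time in either microbial state. At ZT22 the order was the other way round. Dbp was at 1.48, 1.82 and 2.86 CPM in SPF LKO livers and at 1.60, 2.79 and 2.97 CPM in GF LKO livers, above every WT library at that time, by 1.46 ± 0.34 (adjusted p = 0.0329) and 1.43 ± 0.34 (adjusted p = 0.0301). These ZT22 differences rest on low counts and on few libraries: leaving out single libraries of that time took the adjusted p above 0.05 in 5 of 12 fits in each comparison, with highest values of 0.166 (SPF) and 0.113 (GF).

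Tef behaved alike on a smaller scale. It was lower in LKO livers at ZT6, by -0.87 ± 0.15 in SPF and -0.83 ± 0.15 in GF mice (adjusted p = 0.00259 and 0.00265), and at ZT10, by -1.14 ± 0.11 and -1.20 ± 0.11 (adjusted p = 1.07e-05 and 4.25e-06). SPF LKO livers held 117, 118 and 138 CPM at ZT10, below the lowest SPF WT library (236 CPM), and GF LKO livers held 111, 121 and 122 CPM, below the lowest GF WT library (261 CPM). At ZT22 Tef was higher in LKO livers, at 90.7, 91.6 and 94.3 CPM (SPF) and 90.9, 99.7 and 110 CPM (GF) against 44 to 50.8 CPM and 43.7 to 58.8 CPM in WT livers, with log2 differences of 0.97 ± 0.12 (adjusted p = 0.000372) and 0.99 ± 0.12 (adjusted p = 0.000227). At ZT2 it passed in the GF comparison, where GF LKO livers held 89.0, 89.3 and 105 CPM against 39.4, 41.9 and 46.9 CPM (1.14 ± 0.18, adjusted p = 0.00186), while SPF LKO livers at 82.0, 85.6 and 93.9 CPM overlapped SPF WT livers at 61.4, 103 and 110 CPM. Every one of these Tef calls remained below 0.05 when any single library of its ZT was left out.

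Nfil3, the repressor, moved the opposite way. LKO livers had more Nfil3 at ZT10, at 28.3, 30.5 and 32.8 CPM in SPF LKO and 25.3, 26.6 and 41.9 CPM in GF LKO mice, above all WT libraries (11.8 to 22.0 and 11.2 to 16.3 CPM). The log2 differences were 0.93 ± 0.23 (adjusted p = 0.0171) and 1.25 ± 0.23 (adjusted p = 0.00213). At ZT6 it was higher in GF LKO mice, at 22.2, 32.5 and 37 CPM (1.24 ± 0.34, adjusted p = 0.0318), and at ZT22 it was lower there, at 27.4, 33.5 and 38.6 CPM against 44.7 to 73.1 CPM (-0.82 ± 0.20, adjusted p = 0.0363). In SPF mice the Nfil3 differences at ZT6 (0.95 ± 0.33, adjusted p = 0.113) and ZT22 (-0.64 ± 0.20, adjusted p = 0.131) had the same directions. The SPF libraries did not overlap between genotypes at either time, but neither difference passed. Whether the Nfil3 difference itself differed between SPF and GF mice at single ZTs was not tested. With single libraries left out, the SPF ZT10 call was lost in 3 of 12 fits, and the GF ZT6 and ZT22 calls in 4 of 12 fits each. By edgeR Hlf passed at GF ZT6 only, at 33.9, 36 and 40.6 CPM in GF LKO against 56, 64 and 70.6 CPM in GF WT livers (-0.79 ± 0.17, adjusted p = 0.0102). GF LKO libraries also lay below all GF WT libraries at ZT10, ZT14 and ZT18. Those differences did not pass (-0.61 ± 0.19, -0.48 ± 0.13 and -0.43 ± 0.13, adjusted p = 0.0513, 0.0545 and 0.0630). In SPF mice Hlf overlapped between genotypes at every ZT. DESeq2 called 4 of 4 members, and so Hlf, at ZT10 in SPF and in GF mice, beside 13.2% and 13.4% of genes.

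Counted over ZT2, ZT6, ZT10, ZT14, ZT18 and ZT22, members called for genotype in SPF mice were 0, 2, 3, 0, 0 and 2 of 4, where 6.89%, 7.26%, 11.9%, 0%, 0.015% and 3.31% of all genes tested at that time were called. In GF mice they were 1, 4, 3, 0, 0 and 3 of 4, against 4.21%, 11.7%, 13.1%, 6.1%, 8.43% and 4.44% of all genes. Where the count was 0, unadjusted p-values under 0.05 were found for 1 member at ZT2, 3 at ZT14 and 0 at ZT18 in SPF mice and for 2 at ZT14 and 2 at ZT18 in GF mice, and DESeq2 called 0 of them in SPF mice and 1 at each of these times in GF mice. The 0% at ZT14 in SPF mice was 0 of 13317 genes by edgeR, with 1484 genes at an unadjusted p under 0.05 and 135 genes called by DESeq2, and that time holds a pair of libraries that went against their labels. Dbp there was at 1.95, 3.43 and 8.71 CPM in SPF LKO livers, the highest in a library that resembled WT. Leaving out both libraries at ZT14, an alternative added after the data were seen, in a fit that shares 1 spread over the 4 groups, 5.51% of 13485 genes were called in SPF mice and 13.6% in GF mice. The SPF difference of Dbp then went from -2.50 ± 0.84 to -1.14 ± 0.37 (adjusted p = 0.322 and 0.114) and that of Nfil3 from 0.63 ± 0.25 to 0.16 ± 0.20 (adjusted p = 0.393 and 0.769), and neither passed. Tef passed in SPF mice (-0.58 ± 0.095, adjusted p = 0.00294), and Dbp (-1.64 ± 0.30, adjusted p = 0.00283), Tef (-0.54 ± 0.078, adjusted p = 0.000538) and Hlf (-0.47 ± 0.11, adjusted p = 0.0133) passed in GF mice.

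**Figure D2:**
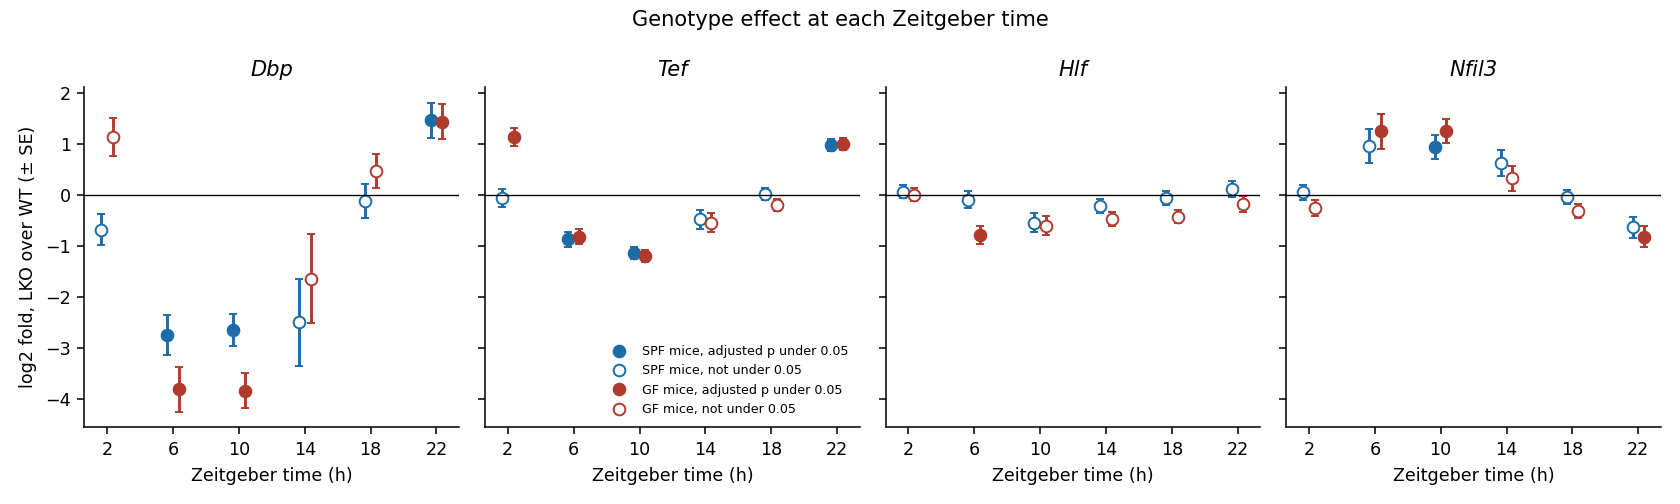
Log2 fold of LKO over WT (y axis, ± SE) at each Zeitgeber time (x axis, h) for the 4 genes, SPF mice in blue and GF mice in red; filled points have an edgeR adjusted p under 0.05. Dbp and Tef cross from negative values at ZT6 and ZT10 to positive values at ZT22, and Nfil3 crosses the other way. All libraries are included, and without the pair that went against their labels the SPF values at ZT14 are -1.14 for Dbp and 0.16 for Nfil3.

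Rhythms were shallower in LKO livers, and some persisted. In SPF LKO mice, where 24.5% of 12278 genes were called rhythmic, Dbp (amplitude 1.09 ± 0.16, peak ZT 8.64 ± 0.569 h, adjusted p = 0.00106) and Tef (0.30 ± 0.060, peak ZT 12.5 ± 0.769 h, adjusted p = 0.00679) were among them, and Hlf (0.18 ± 0.056, adjusted p = 0.0616) and Nfil3 (0.15 ± 0.084, adjusted p = 0.315) were not. In GF LKO mice, where 38.6% of 11903 genes were called, Dbp (0.53 ± 0.13, peak ZT 11.6 ± 0.966 h, adjusted p = 0.0117), Tef (0.16 ± 0.036, peak ZT 11.7 ± 0.888 h, adjusted p = 0.00702) and Hlf (0.27 ± 0.052, peak ZT 15.1 ± 0.742 h, adjusted p = 0.00208) passed, and Nfil3 (0.21 ± 0.088, adjusted p = 0.133) did not. In fold terms, the fitted peak of Dbp stood 72.6 times above its trough in SPF WT and 129 times in GF WT mice, but 4.51 times in SPF LKO and 2.07 times in GF LKO mice. The repressor flattened too. For Nfil3 the same ratio went from 3.13 and 5.42 in WT to 1.24 and 1.35 in LKO mice. Calls in LKO mice were less firm for Tef and Dbp: without replicate 2 the SPF LKO rhythm of Tef had an adjusted p of 0.116, and without replicate 1 the GF LKO rhythm of Dbp had 0.0899.

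The difference of rhythm between genotypes was tested directly, with a pair of group-by-harmonic terms. Its adjusted p covers amplitude and phase together, and the amplitude differences given beside it were not tested alone. In SPF mice it was called for 3 of 4 members, Dbp, Tef and Nfil3, against 1.12% of 13159 genes, with amplitudes lower in LKO by -2.0 (adjusted p = 0.0173), -0.84 (adjusted p = 0.000154) and -0.67 (adjusted p = 0.00779). In GF mice it was called for the same 3 members, against 6.38% of 12662 genes, with differences of -2.98 (adjusted p = 6.15e-08), -1.15 (adjusted p = 4.55e-07) and -1.01 (adjusted p = 0.000229). Hlf did not pass in either (-0.22, adjusted p = 0.273, and -0.18, adjusted p = 0.187). Without the 4 libraries that went against their labels the same counts of 3 members were called, against 2.77% and 7.27% of genes. In SPF mice the call for Nfil3 was lost without replicate 1, 2 or 3, for Dbp without replicate 1 or 2, and for Tef without replicate 1 (adjusted p from 0.0514 to 0.184).

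Where both genotypes had a called rhythm, peak times could be compared. Dbp peaked at a like time in SPF LKO and SPF WT mice (LKO minus WT -0.605 h, 95% interval -1.94 to 0.734 h), and later by 2.17 h when GF LKO mice were set against GF WT mice (0.211 to 4.14 h). Tef peaked 2.27 h later with the deletion in SPF mice (0.635 to 3.91 h), but without the 3 SPF libraries that went against their labels the difference was 1.35 h, with an interval that includes 0 (-0.267 to 2.98 h). In GF mice the Tef difference was 0.659 h (-1.20 to 2.52 h). Hlf peaked 2.49 h later with the deletion in GF mice (0.469 to 4.51 h, and 2.05 h with 0.0643 to 4.03 h without the 1 GF library). These intervals come from the fitted standard errors and were not adjusted for the number of comparisons.

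**Figure D3:**
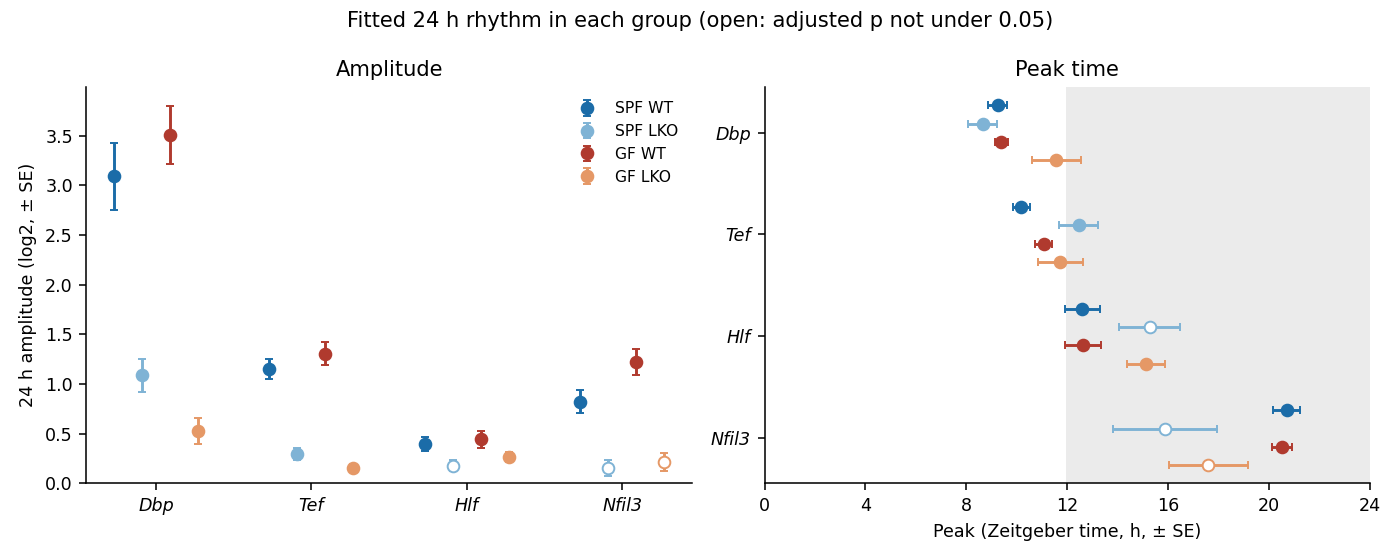
Amplitude (left, log2, ± SE) and peak time (right, Zeitgeber time in h, ± SE, dark phase shaded) of a 24 h cosine fitted to the 18 libraries of each group; open points have an edgeR adjusted p of at least 0.05. Dbp amplitudes of 3.09 and 3.51 in WT mice stand against 1.09 and 0.53 in LKO mice, and Nfil3 peaks stand about opposite to those of Dbp in WT mice.

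Between GF and SPF WT mice no member was called with ZT pooled, and 3 of 4 were called at ZT2. In WT mice with ZT pooled, GF against SPF called 31.8% of 12776 genes and 0 of 4 members by edgeR or DESeq2, with 0 of 4 at an unadjusted p under 0.05. The log2 differences (GF minus SPF) were -0.066 ± 0.68 for Dbp, -0.13 ± 0.29 for Tef, 0.022 ± 0.12 for Hlf and 0.30 ± 0.26 for Nfil3. The mean of the 6 within-ZT differences was -0.60 ± 0.30 for Dbp (adjusted p = 0.114) and -0.21 ± 0.069 for Tef (adjusted p = 0.0171), so that Tef was called on that measure. The rhythm of no member differed between GF and SPF WT mice by the direct test with edgeR or limma (adjusted p from 0.519 for Nfil3 to 0.971 for Hlf), which called 0.047% of 12776 genes, and none had an unadjusted p under 0.05. The peak of Dbp came 0.136 h later in GF WT mice (95% interval -0.772 to 1.04 h) and that of Tef 0.880 h later (-0.0409 to 1.80 h). Without the libraries that went against their labels these differences were 0.901 h (0.147 to 1.66 h) and 1.07 h (0.0860 to 2.06 h), intervals that leave out 0. The direct test without those libraries still called 0 of 4 members, with 0 of 4 at an unadjusted p under 0.05, beside 0.0782% of 12783 genes. The amplitude of Nfil3 was higher in GF WT mice by 0.40 ± 0.17 in the separate fits, a difference for which the direct test of amplitude and phase together had an adjusted p of 0.519.

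At ZT2, 2 h after lights on, 10.1% of 13596 genes were called between GF and SPF WT livers, and 3 of 4 members were. Dbp was at 0.878, 0.978 and 1.07 CPM in GF WT livers, below the 3.04, 6.51 and 6.52 CPM of SPF WT livers (-2.44 ± 0.36, adjusted p = 0.00189). Tef was at 39.4, 41.9 and 46.9 CPM against 61.4, 103 and 110 CPM (-1.09 ± 0.18, adjusted p = 0.00401). Nfil3 was at 43.4, 44.2 and 51.4 CPM against 29.8, 32.5 and 34.3 CPM (0.53 ± 0.15, adjusted p = 0.0444). None of these groups overlapped, and Hlf, at 31.1, 33.1 and 38 CPM against 43.2, 43.6 and 44.4 CPM, did not overlap either but did not pass (-0.35 ± 0.12, adjusted p = 0.0770). Arntl stood at 26.4, 29.8 and 33.2 CPM in those GF WT livers against 11, 15.5 and 27.9 CPM in SPF WT livers. In the check of labels, SPF WT ZT2 replicates 1 and 2 correlated best with SPF WT at ZT6, 4 h later. GF WT ZT2 replicates 1 and 2 correlated best with GF WT at ZT22, 4 h earlier. Whether an offset in time had a part in the ZT2 differences was not tested. The Dbp and Tef calls held in all 12 fits with a single library left out, whereas the Nfil3 call was lost in 7 of 12 (adjusted p up to 0.141). At ZT6, ZT10, ZT14, ZT18 and ZT22 no member passed in WT mice by edgeR, where 2.62%, 2.89%, 0.0751%, 0.983% and 0.516% of genes did; Dbp at ZT10 and Nfil3 at ZT18 had unadjusted p-values of 0.0317 and 0.00182, and DESeq2 called 1 member at ZT18. Dbp at ZT14 stood at -1.46 ± 0.80 (adjusted p = 0.425) with all libraries and at 0.69 ± 0.32 (adjusted p = 0.288) with both ZT14 libraries left out.

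In LKO mice, Hlf was lower in GF than in SPF livers with ZT pooled, at 29.6 to 54.5 CPM (median 42.6) against 40.8 to 65.2 CPM (median 50.8), a log2 difference of -0.26 ± 0.074 (adjusted p = 0.00606). The groups overlapped. It was the only 1 of 4 members called, where 36.4% of 13010 genes were, so that the share of members was below that of all genes. Dbp stood at -0.55 ± 0.24 (adjusted p = 0.0719), Tef at -0.059 ± 0.073 and Nfil3 at 0.11 ± 0.096 (adjusted p = 0.563 and 0.405). At ZT2, 8.92% of genes and 1 member, Hlf, were called, at 29.6, 36.4 and 37 CPM in GF LKO against 40.8, 44.7 and 51.1 CPM in SPF LKO livers (-0.41 ± 0.12, adjusted p = 0.0479), a call lost in 10 of 12 fits with a single library left out. At the later ZTs, where 0.309%, 0.982%, 0.0601%, 3.71% and 2.25% of genes were called, no member passed by edgeR, with 2 members (Dbp and Hlf) at an unadjusted p under 0.05, both at ZT6, and 1 member called there by DESeq2.

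The direct test of rhythm between GF and SPF LKO mice called 5.34% of 13010 genes and 0 of 4 members by edgeR or limma, with 1 member, Dbp, at an unadjusted p of 0.00353. The Dbp amplitude was lower in GF LKO mice by -0.56, and its peak came 2.92 h later (95% interval 0.720 to 5.11 h). For amplitude and phase together the direct test of Dbp had an adjusted p of 0.0568. Without the libraries that went against their labels, which in this comparison are 2 SPF LKO libraries, the amplitude difference was -0.63 and the peak came 3.75 h later (1.64 to 5.87 h). The direct test of both together then had an adjusted p of 0.0242.

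Because the activators and NFIL3 compete for the same elements, the transcript sum of Dbp, Tef and Hlf was set against Nfil3 per length in each library. In SPF WT livers the sum was 62.4 CPM per kb at ZT10 and 13.2 at ZT22, and in GF WT livers 71.7 at ZT10 and 10.9 at ZT2. The log2 ratio of the sum to Nfil3 went from 2.99 ± 0.77 at ZT10 to -0.84 ± 0.31 at ZT22 in SPF WT livers (SD, n = 3), and from 3.48 ± 0.45 at ZT10 to -1.07 ± 0.16 at ZT2 in GF WT livers. Activator transcripts thus outnumbered Nfil3 by 7.97 and 11.2 times at ZT10 and were fewer than Nfil3 in late night or early day. In LKO livers the ratio stayed between 0.24 ± 0.25 and 0.78 ± 0.11 (SPF) and between -0.098 ± 0.13 and 0.66 ± 0.40 (GF), inside the range of the WT means. At ZT2 the ratio was -1.25 to -0.96 in GF WT and -0.14 to 0.57 in SPF WT libraries. Dbp supplied between 1.64% and 37.2% of the sum in SPF WT libraries and between 2.53% and 14.5% in SPF LKO libraries. In GF mice its share was between 2.02% and 42.3% in WT and between 2.47% and 10.1% in LKO libraries. The 37.2% was in SPF WT ZT14 replicate 3, a library that went against its label. The ratio is of transcripts per length, is given as a description, and protein was not measured here.

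**Figure D4:**
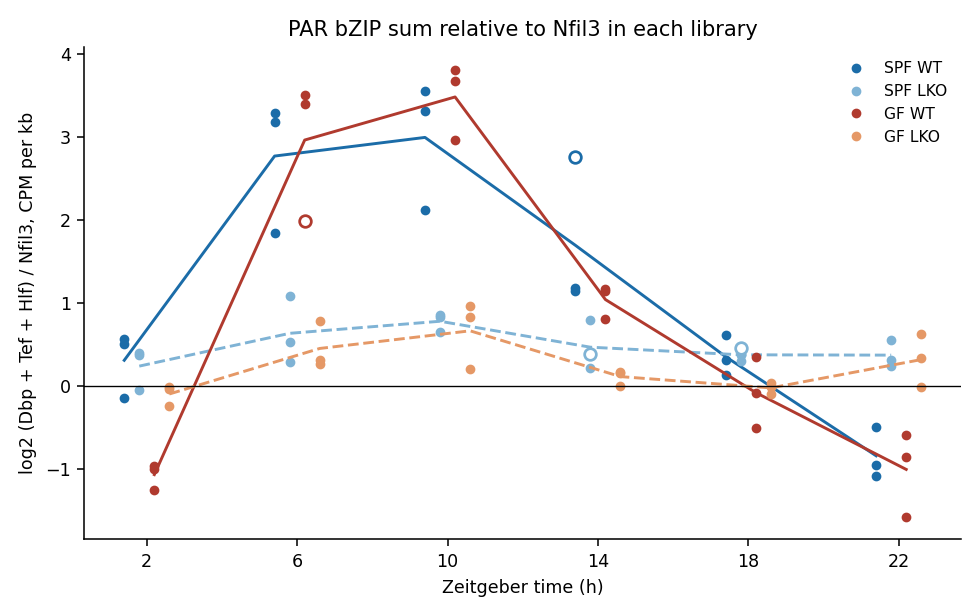
Log2 of the summed CPM per kb of Dbp, Tef and Hlf over that of Nfil3 (y axis) against Zeitgeber time (x axis, h); each point is 1 library, lines join the ZT means, and open points are the 4 libraries that went against their labels. WT means run from 2.99 (SPF) and 3.48 (GF) at ZT10 to below 0 at ZT22, while LKO means stay between -0.098 and 0.78.

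Genes known to be controlled through D-box elements or by PAR bZIP factors were lower in LKO livers for the most part. Of a list of 18 such genes, 17 passed the filter on low counts (Cyp2a4 did not). The list was chosen with earlier results of these data known, so that its counts are a description. With ZT pooled, SPF LKO mice had less of 11 and more of 1, and GF LKO mice had less of 13 and more of 1, where 23.1% and 30.8% of all genes were called in either direction. Median log2 differences were -0.76 (SPF) and -1.65 (GF), beside -0.0054 and 0.0082 over all genes tested. Acot3, an acyl-CoA thioesterase, was lower by -2.01 ± 0.57 in SPF and -5.12 ± 0.44 in GF mice (adjusted p = 0.00806 and 2.79e-12). Cyp2a5, a coumarin hydroxylase, was lower by -1.47 ± 0.34 and -3.18 ± 0.23 (adjusted p = 0.00136 and 4.36e-14). The fatty acid hydroxylases Cyp4a10 (-1.55 ± 0.23 and -2.67 ± 0.24) and Cyp4a14 (-1.66 ± 0.32 and -2.63 ± 0.41) and the drug exporter gene Abcb1a (-1.54 ± 0.26 and -1.94 ± 0.23) were lower in both. Cyp2b10, a xenobiotic-induced P450, was the 1 gene that was higher, by 1.56 ± 0.28 and 1.56 ± 0.27. Without the 4 libraries, 14 of 17 were lower in SPF and 13 of 17 in GF mice, where 27.9% and 30.1% of all genes were called.

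The genotype effect differed between GF and SPF mice for 3 of 17 list genes, where 0.438% of all genes were called. They were Cyp2a5 (-1.72 ± 0.41, adjusted p = 0.0272), Acot3 (-3.12 ± 0.79, adjusted p = 0.0464) and Cyp3a11, the main liver CYP3A enzyme gene, which was named after its values were seen (-2.61 ± 0.32, adjusted p = 1.77e-07). Cyp3a11 was lower in GF LKO mice by -2.38 ± 0.28 (adjusted p = 7.15e-09) and stood at 0.22 ± 0.17 in SPF mice (adjusted p = 0.369). Without the 4 libraries 1 of 17, Cyp3a11, was called, against 0.356% of all genes, and Cyp2a5 and Acot3 were not. Rhythm differences between genotypes were called by edgeR for 0 of 17 list genes in SPF mice (4 at an unadjusted p under 0.05) and 3 of 17 in GF mice, against 1.12% and 6.38% of all genes. Without the 4 libraries they were called for 6 and 5 of 17, against 2.77% and 7.27%.

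**Figure D5:**
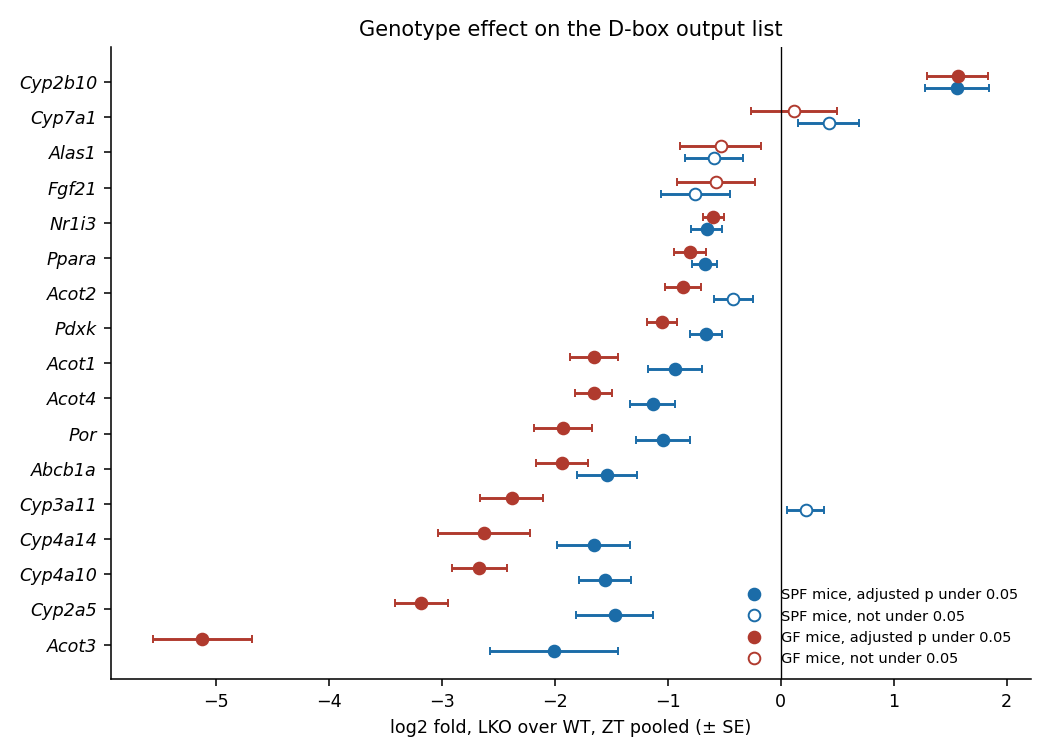
Log2 fold of LKO over WT with ZT pooled (x axis, ± SE, 18 libraries per group) for the 17 genes of the D-box list that passed the filter (y axis), SPF mice in blue and GF mice in red; filled points have an edgeR adjusted p under 0.05. Of the filled points, 11 (SPF) and 13 (GF) lie below 0 and Cyp2b10 lies above 0 in both.

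Clock regulators formed the other list, which was also chosen with earlier results of these data known. Of 15 genes, 9 were called in SPF mice (4 higher, 5 lower) and 9 of the 14 tested in GF mice (5 higher, 4 lower), beside 23.1% and 30.8% of all genes. Ciart, a repressor of CLOCK:BMAL1, was lower by -2.30 ± 0.59 in SPF and -3.51 ± 0.61 in GF LKO mice, Nr1d1, which encodes REV-ERBα, by -2.93 ± 0.53 and -2.80 ± 0.48, Nr1d2, which encodes REV-ERBβ, by -1.93 ± 0.31 and -2.48 ± 0.28, and the period gene Per3 by -1.29 ± 0.35 and -1.80 ± 0.35. Npas2, a CLOCK paralog, was higher by 3.25 ± 0.52 and 2.83 ± 0.47. Their rhythm differed between genotypes for 8 of 15 genes in SPF and 11 of 14 in GF mice (1.12% and 6.38% of all genes), each with a lower amplitude in LKO mice. Between GF and SPF WT mice with ZT pooled, edgeR called 0 of 15 clock regulators, beside 31.8% of all genes, with 1 at an unadjusted p under 0.05. At ZT2, 6 of the 14 tested were called between these mice (2 higher and 4 lower in GF), beside 10.1% of all genes. Arntl itself is on this list. In the C/EBP family, relatives that bind related elements, 1 of 6 genes was called in SPF mice and 3 of 6 in GF mice, beside the same 23.1% and 30.8%. Without the 4 libraries 3 of 6 and 2 of 6 were called, beside 27.9% and 30.1%. Cebpg was called in both with all libraries, by -0.165 ± 0.060 and -0.19 ± 0.054 (adjusted p = 0.0428 and 0.00625). Cebpe, named after its values were seen, stood at 0.34 ± 0.13 in SPF mice (adjusted p = 0.0541) and was higher in GF LKO mice by 0.60 ± 0.15 (adjusted p = 0.00229).

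Over the 24 means of group and ZT, the members' own patterns were ordered as their peaks were. Pearson's r of log2 CPM was 0.894 between Dbp and Tef, 0.719 between Tef and Hlf, 0.602 between Dbp and Hlf, and -0.918, -0.781 and -0.424 between Nfil3 and Dbp, Tef and Hlf. Among 11085 genes that were not low in these means, Slc5a6 (0.906), Narf (0.906), Trim24 (0.903), 3110082I17Rik (0.902) and Fam76a (0.900) were most like Dbp, and Net1 (-0.937), Caprin1 (-0.936) and Arntl (-0.926) most opposed. Per3 (0.919), 1700001L05Rik (0.905), Wee1 (0.866), Rapgef1 (0.866) and Plcg1 (0.847) were most like Tef, and Arntl (-0.855), Cwc22 (-0.844) and Tex2 (-0.840) most opposed. For Hlf the most alike were Zc3h8 (0.922), Nampt (0.912), Tor1b (0.912), Fam102a (0.908) and Trak1 (0.903), and the most opposed Slc39a8 (-0.911), Abcb11 (-0.903) and Stat5b (-0.893). For Nfil3 they were Arntl (0.904), Ormdl3 (0.897), Bmp1 (0.894), Mif4gd (0.887) and Fpgs (0.875), and Fam76a (-0.879), 3110082I17Rik (-0.856) and Anxa7 (-0.845). Fam76a and 3110082I17Rik stood both among the genes most like Dbp and among those most opposed to Nfil3, and Arntl was among the extremes of 3 members. These values describe the same 72 libraries, whose means share depth and scaling within each group, and carry no test.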

How the data were processed

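The authors extracted RNA from bulk liver with TRIzol, made libraries with an Illumina stranded mRNA kit, sequenced single-end reads, aligned them to mm10 with STAR 2.6.1b and counted reads per gene with featureCounts 2.0.0. The counting command in the file header sets no strand option. The deposited values are raw counts of 55573 genes, 55394 of which matched a symbol, with 17369927 to 22076113 counts per library. Errors are spreads or standard errors over libraries, the number of which limits the precision of group means. Low counts limit it as well for Dbp at ZT22, where WT libraries held 12 to 19 counts. Counts were tested with edgeR 4.0.16 (quasi-likelihood, TMM, filterByExpr, adjusted p under 0.05) in R 4.3.3: pairs of groups over 36 libraries with ZT pooled, the 4 groups over 12 libraries at each ZT, the interaction over 72 libraries, and a 24 h cosine over the 18 libraries of a group. DESeq2 1.42.0 and limma 3.58.1 were alternatives, as were other scalings, filters, time terms and left-out libraries. Scripts were tested on simulated data. Likeness was Pearson's r of log2(CPM + 0.5) over 24 means of group and ZT, for 11085 genes with a mean of at least 1. Named were the 4 members, Arntl, up to 5 genes per list with the largest change among those called in both genotype comparisons, and the 5 most alike and 3 most opposed genes. Members and lists were chosen with earlier results of these data known. Promoter windows came from RefSeq.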

Additional observations from a re-analysis of the deposited data

How the results depend on the processing

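Of 930 values under alternatives, 831 kept their direction and their side of the threshold, 59 lost a call, 26 gained one and 14 changed sign. With the mean of within-ZT effects, calls were gained for Tef (-0.26) and Nfil3 (0.31) between SPF genotypes, Tef between GF genotypes (-0.11), Tef between GF and SPF WT mice (-0.21) and Dbp between GF and SPF LKO mice (-0.43, and -0.46 with ZT as a factor). Sign changes among uncalled values were those of Nfil3 between GF genotypes (-0.0011 with RLE size factors, -0.0050 without a filter, -0.036 without the 4 libraries, -0.0034 with DESeq2), Dbp between WT mice (0.13) and Tef between LKO mice (0.011) without the 4 libraries, and Dbp in the interaction (0.014 with ZT as a factor, 0.15 with within-ZT effects). With ZT as a factor the adjusted p was 0.0787 for the Tef rhythm in SPF LKO mice and 0.162 and 0.135 for the SPF rhythm differences of Dbp and Nfil3. Without a filter the Nfil3 rhythm in GF LKO mice passed (0.21). The Dbp rhythm difference between LKO mice passed without a filter (-0.55), with the replicate block (-0.56) and without the 4 libraries (-0.63).

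Leaving out replicate 1, 2 or 3 in turn gave -2.56 to -1.78 for Dbp between SPF genotypes, -0.51 to -0.32 for Hlf and -0.083 to 0.072 for Nfil3 between GF genotypes, -0.33 to 0.38 for Dbp and -0.10 to 0.10 for Hlf between WT mice, and -0.072 to 0.16 for Tef in the interaction. Amplitudes ran from 0.32 to 0.48 for Hlf in SPF WT, 0.19 to 0.35 for Tef in SPF LKO, and 0.48 to 0.62 for Dbp and 0.13 to 0.20 for Tef in GF LKO mice. Rhythm differences between SPF genotypes ran from -2.21 to -1.89 for Dbp, -0.92 to -0.78 for Tef and -0.73 to -0.61 for Nfil3, and those of Hlf from -0.073 to 0.16 between WT and -0.021 to 0.16 between LKO mice.

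Whether replicate numbers pair the libraries was not settled. Per pair of groups, 2 to 6 of 18 same-numbered pairs correlated above 0.1, and the median r lay between -0.0730 and 0.0197. The highest r was 0.435, and differently numbered pairs were not compared. With ZT pooled, the replicate block was a term for each ZT and replicate number, so that it took out time of day as well. Dbp then stood at -1.34 between SPF and -1.46 between GF genotypes, both still called. Within single ZTs the block was the replicate number. There Hlf between LKO mice at ZT2 (-0.42) and Nfil3 between GF genotypes at ZT6 (1.23) lost their calls, and Hlf gained one at ZT10 in both genotype comparisons. Rhythm differences between SPF genotypes were called for 148 genes, 44 with ZT as a factor, 246 without a filter and 364 without the 4 libraries, and between LKO mice for 695 genes, 7 with ZT as a factor and 399 without the 4 libraries. Between WT mice they were called for 6 genes and 62 without a filter, and with ZT as a factor the SPF WT rhythm count fell from 2041 to 990. Low Dbp counts at ZT22 limit that comparison. The causes were not tested.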
